A study of Mus musculus with 6 samples.

Results

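Collagens, elastic fibre components and matrix glycoproteins, with the enzymes that modify and cross-link them, were followed as a list of 43 genes in Tri-PyMT breast tumour cells. The list was given by symbol, and all 43 symbols were found among the 30743 features of the deposited expression table. Tri-PyMT is a mouse mammary tumour line in which, as background, Cre driven by the S100a4 (Fsp1) promoter switches a reporter permanently from red (RFP) to green (GFP) fluorescence. The study sorted RFP+ cells, labelled non-EMT, and GFP+ cells, labelled EMT (epithelial-mesenchymal transition), by flow cytometry and sequenced their RNA. The data hold 2 samples of RFP+ and 2 of GFP+ cells without drug, and 2 of GFP+ cells cultured with 4-hydroperoxy-cyclophosphamide (CTX) at 4 µM for 7 days. This compound is a preactivated form of the alkylating drug cyclophosphamide. All cells were grown with serum, the time in culture of the untreated cells was not given in the sources used here, and CTX-treated RFP+ cells were not analysed here. The reporter records past activity of the S100a4 promoter, and S100a4 mRNA itself was also present in RFP+ cells, at 1261 and 704 FPKM against 1785 and 1754 in untreated GFP+ and 1569 and 1539 in CTX-treated GFP+ cells. Whether the samples within each group were independent cultures is not stated in the labels, and p-values thus measure spread among these samples alone, which may be technical.

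Fibrillar collagens are secreted as helical trimers that assemble into fibrils, and collagen IV, laminins, nidogen and perlecan form the sheet of the basement membrane under epithelia. Inside the cell, prolyl and lysyl hydroxylases modify the collagen chains and the chaperone encoded by Serpinh1 escorts them, and outside it lysyl oxidases cross-link collagen and elastin. Elastic fibres consist of an elastin core laid on fibrillin microfibrils with the help of fibulins. In mammary tissue the interstitial matrix is made mainly by fibroblasts, and cells that undergo EMT are known to take up part of that programme.

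RefSeq promoter sequence (build GRCm38.p6) was available for 33 of the 43 genes, with 40 start sites. The 250 bases before the RefSeq start are shown for 5 of them, because these genes carry the results below: a pair of prolyl hydroxylase subunits, a lysyl hydroxylase, a fibulin that rose in CTX-treated cells, and Emilin1, which differed between the untreated populations. They lie at chr10:59323046-59323295 (plus strand), chr11:54100674-54100923 (plus), chr4:147936777-147937026 (minus), chr15:85205699-85205948 (plus) and chr5:30913536-30913785 (plus), in the order printed. The starts of P4ha1, P4ha2 and Fbln1 match a transcript start in GENCODE, and those of Plod1 and Emilin1 match none. The windows of P4ha2 and Emilin1 lie inside the gene as GENCODE annotates it, so they are not upstream of its outermost start. Capitals mark ACGTG on either strand, the core of the element bound by hypoxia-inducible factors, for which collagen hydroxylase genes are known targets.
P4ha1: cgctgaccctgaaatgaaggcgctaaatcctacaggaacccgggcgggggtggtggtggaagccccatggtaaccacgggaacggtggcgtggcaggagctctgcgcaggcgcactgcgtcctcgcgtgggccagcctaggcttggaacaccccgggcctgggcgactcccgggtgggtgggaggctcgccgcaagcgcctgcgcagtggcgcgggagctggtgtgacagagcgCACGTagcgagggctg
P4ha2: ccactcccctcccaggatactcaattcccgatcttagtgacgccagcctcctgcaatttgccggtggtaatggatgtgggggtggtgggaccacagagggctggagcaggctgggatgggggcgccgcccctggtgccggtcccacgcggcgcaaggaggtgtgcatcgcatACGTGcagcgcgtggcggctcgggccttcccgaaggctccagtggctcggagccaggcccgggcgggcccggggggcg
Plod1: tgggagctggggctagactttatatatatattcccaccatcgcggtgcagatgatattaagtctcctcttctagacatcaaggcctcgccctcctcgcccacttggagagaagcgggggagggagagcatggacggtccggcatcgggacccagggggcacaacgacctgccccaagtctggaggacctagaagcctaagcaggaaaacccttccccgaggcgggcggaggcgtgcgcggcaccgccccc
Fbln1: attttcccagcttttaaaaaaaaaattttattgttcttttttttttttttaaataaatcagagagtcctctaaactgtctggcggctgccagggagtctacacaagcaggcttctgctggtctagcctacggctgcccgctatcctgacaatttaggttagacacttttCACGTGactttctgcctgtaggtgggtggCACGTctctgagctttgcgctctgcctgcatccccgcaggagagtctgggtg
Emilin1: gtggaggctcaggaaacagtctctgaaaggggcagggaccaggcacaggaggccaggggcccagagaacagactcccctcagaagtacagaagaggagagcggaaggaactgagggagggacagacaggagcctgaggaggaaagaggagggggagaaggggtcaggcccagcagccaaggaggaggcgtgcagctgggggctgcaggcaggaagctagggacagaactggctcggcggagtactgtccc
The promoters of P4ha1 and P4ha2 each held 1 match and that of Fbln1 held 3, counting CACGTG once on each strand, while those of Plod1 and Emilin1 held 0. Of all 40 promoters of the listed genes 8 held ACGTG, beside 16.6% of 32851 promoters of the same length in the RefSeq table. The GC box GGGCGG was found in 30 of the 40, beside 32.7% of all. CCAAT was found in 14 of the 40 (33.8% of all) and TATAAA in 5 of the 40 (12.4% of all). These are letter matches on either strand and not binding sites.

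Expression is given as FPKM, the number of fragments scaled to transcript length and library size, as the authors deposited it. Absolute read totals were not given. From the steps between low values, relative depth ran from 0.796 in untreated GFP+ replicate 1 to 1.10 in CTX replicate 1, with RFP+ replicate 1 set to 1. Untreated GFP+ replicate 1 stood apart, with the fewest features at or above 1 FPKM (11543, against up to 12866) and a log2 median-ratio size factor of -0.43, where the other 5 samples had 0.03 to 0.15. Every comparison was therefore also made after median-ratio scaling. The CTX samples were far closer to each other than the samples of either untreated group: the spread of replicate differences over all tested features (robust SD of the log2 difference) was 0.0762, against 0.293 in RFP+ and 0.340 in untreated GFP+ cells.

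The matrix genes covered a wide range of levels. Of the 43 genes 32 reached 1 FPKM in all 6 samples, 19 reached 10 FPKM in all 6, and 5 stayed under 1 FPKM everywhere. By mean level over the 6 samples the most abundant were Serpinh1 (280.0 FPKM), Col6a1 (262 FPKM), Thbs1 (198 FPKM), P4ha1 (150.2 FPKM), Col6a2 (147 FPKM) and Efemp2 (120.1 FPKM). Transcripts of collagen I, the main fibril protein of connective tissue, were scarce: Col1a1 lay between 0.873 and 2.31 FPKM and Col1a2 between 0.0695 and 0.410 FPKM. The genes with at least 1 FPKM in at least 2 samples were tested, which kept 37 of the 43. The untested were Col1a2, Col5a2, Col15a1, Fbn1, Lox and Loxl1.

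Between the untreated populations, GFP+ cells had more mRNA for several matrix genes than RFP+ cells, but only Emilin1 passed the test in the deposited values. Emilin1, an elastic fibre glycoprotein, rose 3.24-fold. Of the 37 tested genes 1 rose and 0 fell (limma on log2(FPKM + 1), adjusted p under 0.05 over all 13080 tested features, 13 higher and 0 lower at an unadjusted p under 0.05). Among all tested features 0.115% rose and 1.78% fell at the adjusted threshold. The share at an unadjusted p under 0.05 was not taken. Counts at that threshold, here and below, thus cannot be set against all features. The median log2 change was 0.31 for the matrix genes and -0.24 for all tested features. In 16 matrix genes both GFP+ samples lay above both RFP+ samples and in 0 below (4.95% and 41.5% of all tested features). The cells were sequenced as sorted populations, so fewer cells of a kind and less RNA per cell cannot be told apart. After median-ratio scaling 7 rose and 0 fell (1.02% and 1.96% of all features), namely Col1a1, Col5a1, Col6a1, Col6a2, Col8a1, Fbln2 and Emilin1, and the medians were 0.56 and -0.01. The deposited count was 0 without either RFP+ sample, 1 without untreated GFP+ replicate 1 (not Emilin1), and 8 higher with 2 lower without untreated GFP+ replicate 2. Over all tested features these fits called 0, 15 and 164 higher, and the last of them 4640 lower, where the full fit called 15 and 233.

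CTX-treated GFP+ cells differed from untreated GFP+ cells in both directions. Eln (elastin), Fbln1 (fibulin), P4ha2 (a prolyl hydroxylase subunit) and Thbs2 (a thrombospondin) rose, and Col1a1 and Emilin1 fell. Eln had the largest ratio of means, 9.21-fold, but it was under 1 FPKM in all 4 untreated samples and entered the test only through the CTX samples. Thus 4 of 37 rose and 2 fell, beside 12.3% and 0.474% of all tested features. The count that rose was near the share of all features. The median log2 change was 0.17 for the matrix genes and 0.25 for all features. In 13 genes both CTX samples lay above both untreated GFP+ samples and in 6 below (51.9% and 12.4% of all). After median-ratio scaling the split turned: 2 rose (Eln, Fbln1) and 5 fell (Col1a1, Col5a1, Col8a1, Col11a1, Emilin1), beside 11.0% and 8.04% of all features, and the median became -0.09 for the matrix genes and -0.05 for all. As deposited, the count of genes that rose was 12 without untreated GFP+ replicate 2, 2 without either RFP+ sample and 1 without either CTX sample, and the count that fell was 0 without either RFP+ or either CTX sample. The calls over all features moved alike: 1607 rose in the full fit, 5690 without untreated GFP+ replicate 2, and 509 to 693 without an RFP+ or a CTX sample. The median of the matrix genes was -0.23 without untreated GFP+ replicate 1 and 0.62 without replicate 2, so its sign rests on that pair.

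CTX-treated GFP+ cells also had more mRNA than untreated RFP+ cells for elastic fibre genes and for the collagen-modifying enzymes. These groups differ in reporter colour and in drug treatment at once, and the parts of each cannot be told apart. In this comparison 11 of 37 rose and 0 fell (0 lower also at an unadjusted p under 0.05), beside 11.0% higher and 5.99% lower among all tested features. The 11 were Eln, Fbln1, Fbln2, Fbln5, Efemp2, Plod1, Plod2, P4ha1, P4ha2, Thbs2 and Nid1. Of these, Eln and Nid1 entered the test only through the CTX samples. The median log2 change was 0.54 for the matrix genes and 0.01 for all features. In 23 genes both CTX samples lay above both RFP+ samples and in 3 below (39.5% and 37.7% of all). After median-ratio scaling 11 rose and 0 fell (15.0% and 16.2% of all). Of these, 9 were called in the deposited values, Col6a1 and Col6a2 were added, and Fbln5 and Efemp2 no longer passed. The deposited count was 1 and 3 without RFP+ replicate 1 and 2, and 3 without either CTX sample. It was 17 without untreated GFP+ replicate 1. Over all features 1437 rose in the full fit, 215 to 515 without an RFP+ or a CTX sample, and 2797 without untreated GFP+ replicate 1. The 3 comparisons share samples pairwise, so they are not independent of each other.

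**Figure D1:**
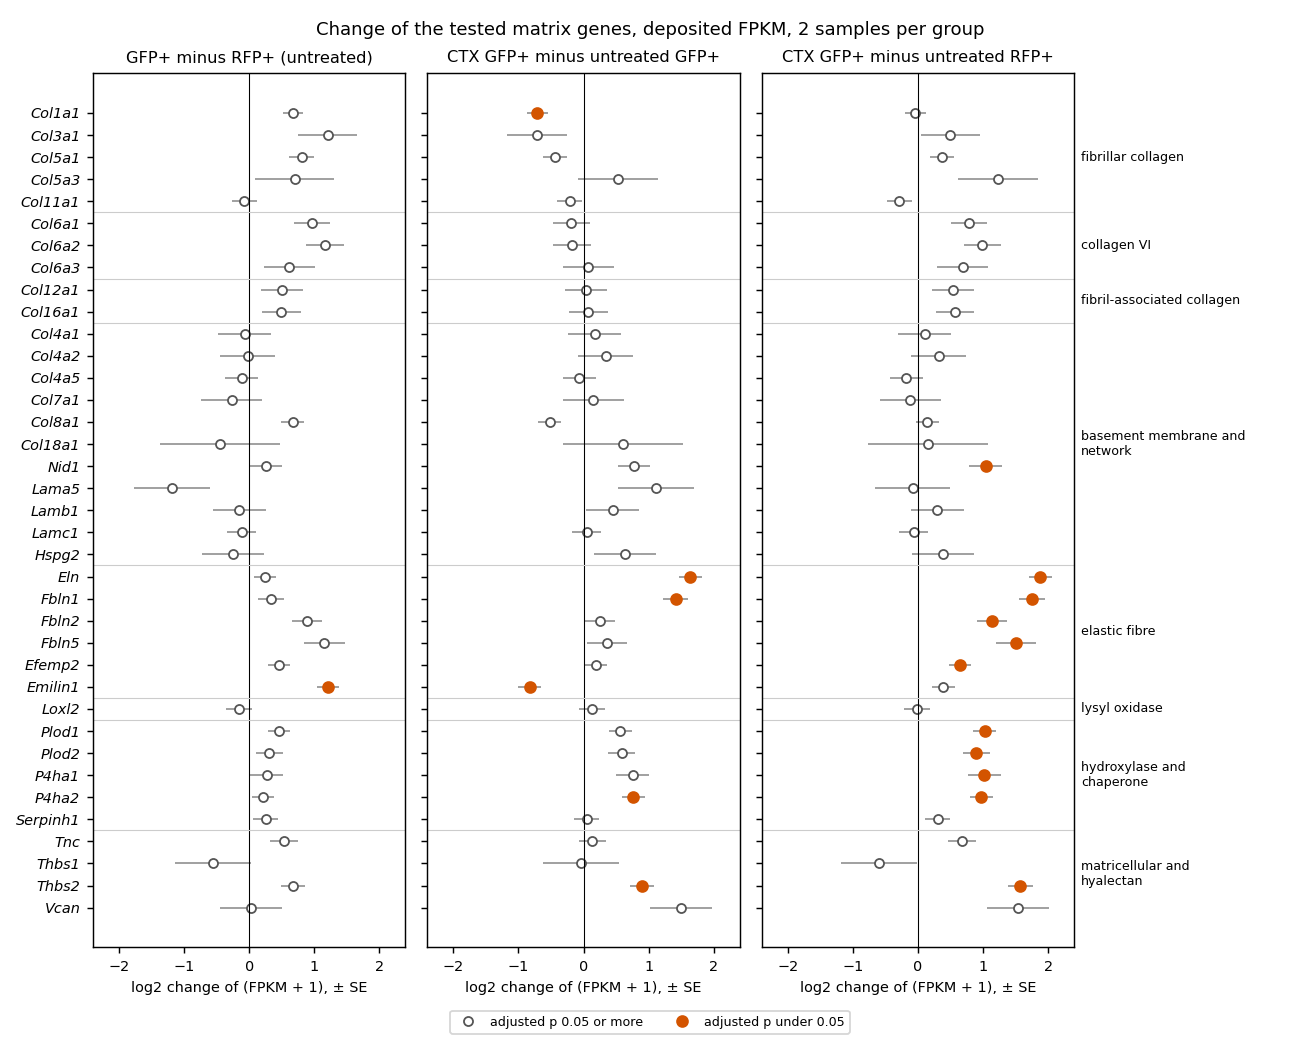
Log2 change of (FPKM + 1) with its standard error from limma for the 37 tested matrix genes, as deposited, with 2 samples per group and genes grouped by role. Filled points have an adjusted p under 0.05: Emilin1 in the left panel, 4 higher and 2 lower genes in the middle panel, and 11 higher genes in the right panel, mostly elastic fibre genes and hydroxylases.

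The elastic fibre genes Eln and Fbln1 had the largest changes past the threshold in both comparisons with CTX-treated cells. Eln, the elastin core protein, was at 0.0739 and 0.175 FPKM in RFP+, 0.163 and 0.518 FPKM in untreated GFP+, and 3.25 and 3.02 FPKM in CTX-treated GFP+ cells. All 4 untreated samples lay under 1 FPKM and both CTX samples above 3 FPKM, with no overlap. On the log2(FPKM + 1) scale Eln was 1.64 higher than in untreated GFP+ cells (SE 0.18, adjusted p = 0.00311) and 1.88 higher than in RFP+ cells (SE 0.18, adjusted p = 0.00173). Without RFP+ replicate 1 the latter had an adjusted p of 0.0508, and without either CTX sample Eln was not tested. Noncoding antisense annotation overlaps Eln, and the library kit named in the labels does not mark strand.

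Fbln1, the fibulin that binds elastin and basement membrane proteins, was at 4.43 and 5.51 FPKM in RFP+, 5.76 and 7.32 FPKM in untreated GFP+, and 18.9 and 19.1 FPKM in CTX-treated cells. The 3 groups did not overlap and the CTX samples stood well above the rest. Fbln1 rose by 1.41 on the log2 scale against untreated GFP+ cells (SE 0.20, adjusted p = 0.00711) and by 1.75 against RFP+ cells (SE 0.20, adjusted p = 0.00278). Leaving out RFP+ replicate 1 gave an adjusted p of 0.0539 for the latter. The change between the untreated populations was 0.33 (adjusted p = 0.377).

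In Fbln2 and Fbln5, also fibulins, only the higher of the untreated GFP+ samples was close to the CTX samples. Fbln2 was at 45.6 and 46.4 FPKM in RFP+, 68.5 and 107 FPKM in untreated GFP+, and 102 and 103 FPKM in CTX-treated cells. Fbln5, which links elastin to cells, was at 5.04 and 2.60 FPKM, 11.8 and 7.45 FPKM, and 12.0 and 12.5 FPKM in the same order. For both genes all GFP+ samples, treated or not, lay above both RFP+ samples. Only in Fbln5 did both CTX samples lie above both untreated GFP+ samples. Against RFP+ cells, CTX-treated cells were 1.14 higher in Fbln2 (SE 0.23, adjusted p = 0.0207) and 1.51 higher in Fbln5 (SE 0.31, adjusted p = 0.0211). Untreated GFP+ cells had changes of 0.88 in Fbln2 (adjusted p = 0.144, and 0.0164 after scaling) and 1.16 in Fbln5 (adjusted p = 0.148, and 0.191 after scaling). The CTX call of Fbln5 had an adjusted p of 0.0523 after scaling and of 0.0680 and 0.101 without RFP+ replicate 1 and 2. That of Fbln2 ranged from 0.0873 to 0.135 without any of the 4 samples compared.

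Efemp2, the fibulin needed for elastic fibre assembly in mice, was the most abundant elastic fibre gene. Its values were 99.2 and 83.7 FPKM in RFP+, 129 and 122 FPKM in untreated GFP+, and 149 and 138 FPKM in CTX-treated cells, with no overlap between the groups. The rise of 0.65 over RFP+ cells in CTX-treated cells (SE 0.17, adjusted p = 0.0465) had an adjusted p of 0.101 after scaling and of 0.0814 to 0.470 without any of the 4 samples compared. Efemp2 overlaps Mus81 on the opposite strand, and reads of these genes cannot be told apart without strand.

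Emilin1, a glycoprotein at the interface of elastin and microfibrils, had a different pattern from the fibulins. It was at 1.62 and 1.21 FPKM in RFP+, 4.95 and 4.21 FPKM in untreated GFP+, and 2.22 and 2.06 FPKM in CTX-treated cells. Untreated GFP+ cells were highest and the 3 groups did not overlap. Emilin1 rose by 1.21 in untreated GFP+ against RFP+ cells (SE 0.18, adjusted p = 0.0254) and fell by 0.82 in CTX-treated against untreated GFP+ cells (SE 0.18, adjusted p = 0.0298). Both calls held after median-ratio scaling (adjusted p = 0.0459 and 0.0310), but the rise missed the threshold after quantile normalization (adjusted p = 0.0547). The rise had an adjusted p of 0.222, 0.206 and 0.0714 without RFP+ replicate 1, RFP+ replicate 2 and untreated GFP+ replicate 1. The fall had one of 0.0569 to 0.330 without any sample other than untreated GFP+ replicate 2. Fbn1, the fibrillin of the microfibrils, was not tested and lay between 0.102 and 0.397 FPKM, lowest in RFP+ and highest in CTX-treated cells without overlap.

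**Figure D2:**
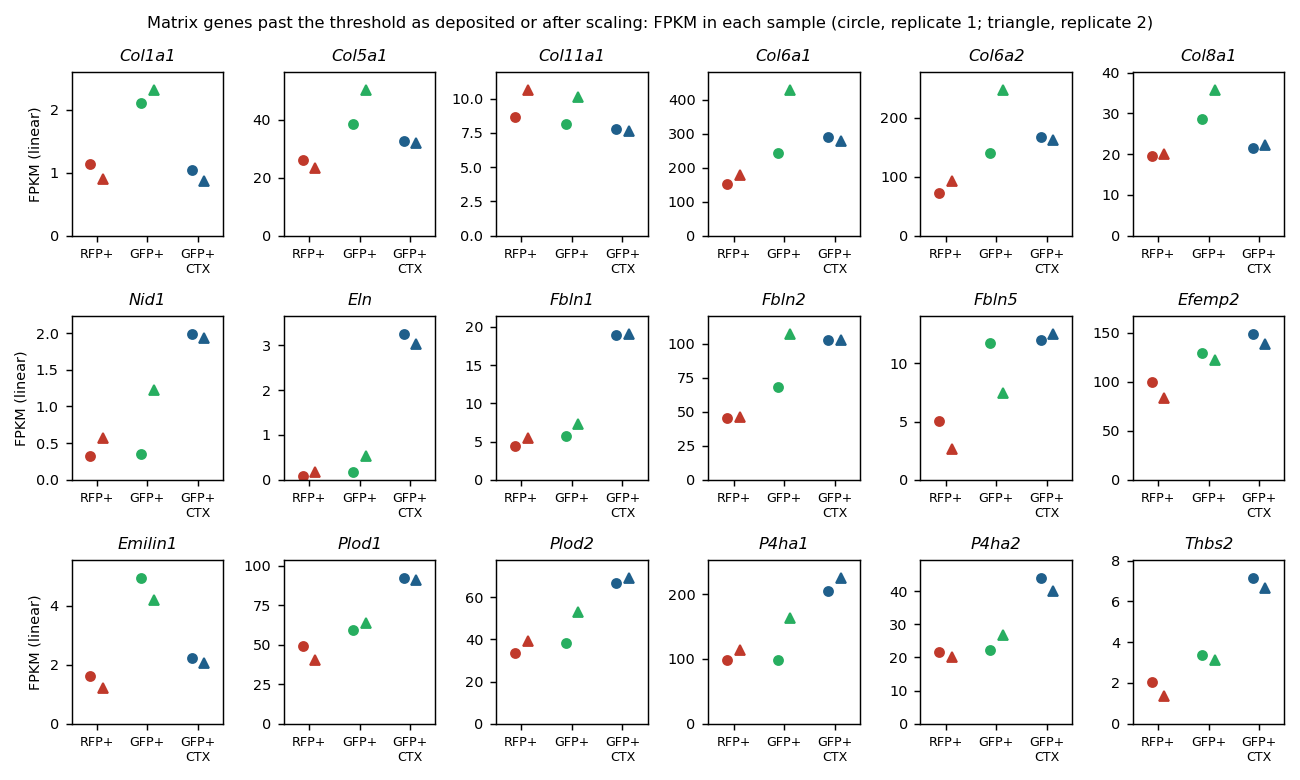
FPKM on a linear axis in each of the 6 samples for the 18 matrix genes past the threshold in any comparison, as deposited or after median-ratio scaling. Circles are replicate 1 and triangles replicate 2 of untreated RFP+, untreated GFP+ and CTX-treated GFP+ cells. Eln and Fbln1 stand out in both CTX samples, and Emilin1 and Col1a1 in both untreated GFP+ samples.

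Of the enzymes and the chaperone that act on collagen chains in the endoplasmic reticulum, 4 of 5 rose in CTX-treated GFP+ against RFP+ cells and 1 of 5 against untreated GFP+ cells, where 11.0% and 12.3% of all tested features rose. P4ha1, the main catalytic subunit of prolyl 4-hydroxylase, was at 97.7 and 113 FPKM in RFP+, 99.0 and 162 FPKM in untreated GFP+, and 204 and 225 FPKM in CTX-treated cells. P4ha2, the alternative subunit, was at 21.5 and 20.2 FPKM, 22.1 and 26.7 FPKM, and 44.0 and 40.0 FPKM in the same order. Both genes were highest in the CTX samples, without overlap with any untreated sample. P4ha1 rose by 1.02 against RFP+ cells (SE 0.26, adjusted p = 0.0400), and its change against untreated GFP+ cells was 0.75 (SE 0.26, adjusted p = 0.106). P4ha2 rose by 0.97 against RFP+ cells (SE 0.17, adjusted p = 0.0140) and by 0.76 against untreated GFP+ cells (SE 0.17, adjusted p = 0.0362). The latter had an adjusted p of 0.0592 after scaling and of 0.0725 to 0.414 without either RFP+ or either CTX sample.

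The lysyl hydroxylases were likewise highest in the CTX samples. Plod1 was at 49.2 and 40.3 FPKM in RFP+, 59.1 and 63.9 FPKM in untreated GFP+, and 92.2 and 90.7 FPKM in CTX-treated cells. Plod2, which modifies the collagen telopeptides that take part in cross-links, was at 33.4 and 39.0 FPKM, 38.0 and 53.1 FPKM, and 66.7 and 69.0 FPKM. In both genes the CTX samples lay above all 4 untreated samples. Against RFP+ cells the rise was 1.02 for Plod1 (SE 0.17, adjusted p = 0.0119) and 0.89 for Plod2 (SE 0.21, adjusted p = 0.0309). Against untreated GFP+ cells the changes were 0.57 (adjusted p = 0.0807) and 0.58 (adjusted p = 0.115). All 4 enzymes passed against RFP+ cells after scaling too. Each missed the threshold without any of the 4 samples compared, with adjusted p from 0.0508 to 0.122 for Plod1, 0.0853 to 0.226 for Plod2, 0.115 to 0.211 for P4ha1 and 0.0701 to 0.177 for P4ha2.

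Serpinh1, the collagen chaperone, was at 274 and 218 FPKM in RFP+, 285 and 299 FPKM in untreated GFP+, and 304 and 299 FPKM in CTX-treated cells. Its spread was small beside its level, and it did not pass in any of the 3 comparisons (log2 changes of 0.26, 0.05 and 0.30, adjusted p = 0.466, 0.896 and 0.310). Lysyl oxidase transcripts were low in all samples: Lox lay between 0.598 and 1.01 FPKM and Loxl1 between 0.147 and 0.810 FPKM, both untested. Loxl2 was at 0.754 and 1.01 FPKM in RFP+, 0.424 and 1.01 FPKM in untreated GFP+, and 0.821 and 0.878 FPKM in CTX-treated cells, with overlapping groups and adjusted p of 0.677, 0.707 and 0.949.

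Among the fibrillar collagens Col1a1, Col3a1 and Col5a1 were highest in both untreated GFP+ samples. Col1a1, a chain of collagen I, was at 1.14 and 0.901 FPKM in RFP+, 2.10 and 2.31 FPKM in untreated GFP+, and 1.05 and 0.873 FPKM in CTX-treated cells. The untreated GFP+ samples stood above the other 4, which overlapped. Col1a1 fell by 0.71 in CTX-treated against untreated GFP+ cells (SE 0.16, adjusted p = 0.0325, and 0.0151 after scaling), with an adjusted p of 0.0696 to 0.478 without either RFP+ or either CTX sample. Its change between the untreated populations was 0.67 (SE 0.16, adjusted p = 0.106), and 0.84 after scaling (adjusted p = 0.0469). Col1a2, the other chain, was untested, at 0.119 and 0.0695 FPKM, 0.153 and 0.410 FPKM, and 0.136 and 0.162 FPKM.

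Col5a1, a chain of collagen V that limits fibril diameter, was the most abundant fibrillar collagen transcript. It was at 26.2 and 23.5 FPKM in RFP+, 38.7 and 50.2 FPKM in untreated GFP+, and 32.6 and 32.1 FPKM in CTX-treated cells. The groups did not overlap, with CTX-treated cells in between. The log2 changes were 0.80 between the untreated populations (SE 0.19, adjusted p = 0.104) and -0.44 in CTX-treated against untreated GFP+ cells (SE 0.19, adjusted p = 0.174). After scaling both passed, at 1.06 (adjusted p = 0.0155) and -0.78 (adjusted p = 0.0121). Its partner chain Col5a2 stayed at or under 0.235 FPKM in all samples.

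Col11a1, a minor fibrillar chain, was at 8.68 and 10.6 FPKM in RFP+, 8.13 and 10.1 FPKM in untreated GFP+, and 7.76 and 7.63 FPKM in CTX-treated cells. Its CTX samples were the lowest of the 6, and the change against untreated GFP+ cells was -0.21 (adjusted p = 0.508), and -0.53 after scaling (adjusted p = 0.0462). Col3a1, the fibrillar collagen of soft tissue, was at 4.93 and 10.5 FPKM, 11.5 and 28.2 FPKM, and 10.9 and 10.3 FPKM. Both untreated GFP+ samples were above all other samples, but they differed much from each other. The change of 1.21 against RFP+ cells had a standard error of 0.45 and an adjusted p of 0.252. That of CTX-treated against untreated GFP+ cells was -0.72 (adjusted p = 0.337). Col5a3 ranged from 1.07 to 8.42 FPKM, both in untreated samples.

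Collagen VI, which forms beaded microfibrils around cells, supplied the most abundant collagen transcripts. Col6a1 was at 153 and 178 FPKM in RFP+, 245 and 429 FPKM in untreated GFP+, and 289.8 and 279 FPKM in CTX-treated cells. Col6a2 was at 73.0 and 93.5 FPKM, 141 and 247 FPKM, and 168 and 162 FPKM. For both chains all GFP+ samples were above both RFP+ samples, and the untreated GFP+ samples spanned the CTX samples. The changes between the untreated populations were 0.97 for Col6a1 (SE 0.28, adjusted p = 0.175) and 1.17 for Col6a2 (SE 0.29, adjusted p = 0.122). After scaling they were 1.23 (adjusted p = 0.0364) and 1.43 (adjusted p = 0.0309). CTX-treated minus RFP+ cells gave 0.78 (adjusted p = 0.104) and 0.99 (adjusted p = 0.0592), and after scaling 0.69 (adjusted p = 0.0374) and 0.90 (adjusted p = 0.0235).

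The ratio of Col6a2 to Col6a1, both on the per-length FPKM scale, was 0.476 and 0.525 in RFP+, 0.576 and 0.576 in untreated GFP+, and 0.579 and 0.580 in CTX-treated cells. It was lower in the RFP+ samples and nearly the same in the other 4. The third chain that makes up the main collagen VI trimer was far scarcer: Col6a3 was at 0.0809 and 0.444 FPKM, 0.227 and 1.99 FPKM, and 0.955 and 1.07 FPKM. Its ratio to Col6a1 did not exceed 0.00464 in any sample. Col6a4, Col6a5 and Col6a6, which encode chains related to the Col6a3 product and were looked up after the other values had been seen, stayed at or under 0.0707, 0.0246 and 0.00851 FPKM.

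The fibril-associated collagens Col12a1 and Col16a1, which sit on the surface of fibrils, were not called in any comparison. Col12a1 was at 64.8 and 81.8 FPKM in RFP+, 73.6 and 147 FPKM in untreated GFP+, and 106 and 106 FPKM in CTX-treated cells. The untreated groups overlapped, and the 3 log2 changes were 0.51, 0.03 and 0.54 (adjusted p = 0.407, 0.960 and 0.289). Col16a1 ranged from 16.5 FPKM in RFP+ replicate 1 to 36.2 FPKM in untreated GFP+ replicate 2.

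Among the basement membrane and network-forming genes Nid1 alone passed the test in the deposited values. Of 11 tested, 0 rose or fell between the untreated populations (1 at an unadjusted p under 0.05), 0 in CTX-treated against untreated GFP+ cells (2 at an unadjusted p under 0.05) and 1 rose in CTX-treated against RFP+ cells, where 0.115%, 12.3% and 11.0% of all tested features rose. Their median log2 change between the untreated populations was -0.12, beside -0.24 for all features, and 0.14 beside -0.01 after scaling. Nid1, nidogen, which joins laminin to collagen IV, was the gene that rose: it was at 0.322 and 0.575 FPKM in RFP+, 0.349 and 1.22 FPKM in untreated GFP+, and 1.99 and 1.94 FPKM in CTX-treated cells. Only 1 untreated sample reached 1 FPKM, so Nid1 entered the test only through the CTX samples. The CTX samples lay above the other 4, the change against RFP+ cells was 1.04 (SE 0.25, adjusted p = 0.0341), and without any of the 4 samples compared the adjusted p was 0.115 to 0.219.

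Col8a1, a network-forming short-chain collagen, was at 19.5 and 20.03 FPKM in RFP+, 28.5 and 35.7 FPKM in untreated GFP+, and 21.5 and 22.3 FPKM in CTX-treated cells. The untreated GFP+ samples were highest. The change was 0.67 between the untreated populations (adjusted p = 0.147) and -0.52 in CTX-treated against untreated GFP+ cells (adjusted p = 0.103). After scaling both passed, at 0.92 (adjusted p = 0.0197) and -0.87 (adjusted p = 0.00953).

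Hspg2, perlecan, the most abundant basement membrane transcript here, was at 44.9 and 79.4 FPKM in RFP+, 30.1 and 82.7 FPKM in untreated GFP+, and 80.6 and 76.0 FPKM in CTX-treated cells. The low values were in replicate 1 of each untreated group, and no comparison passed (adjusted p = 0.773, 0.411 and 0.611). Col18a1, whose product carries endostatin, was at 10.8 and 55.6 FPKM, 7.13 and 43.5 FPKM, and 28.5 and 27.2 FPKM. Lama5, the laminin chain common in epithelial basement membranes, was at 29.8 and 57.0 FPKM, 8.72 and 34.2 FPKM, and 39.0 and 38.6 FPKM. In both genes replicate 1 was the lower sample of each untreated group, by a wide margin, and neither gene passed in any comparison.

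The collagen IV chains Col4a1 and Col4a2, which share a head-to-head promoter region, tracked each other. Col4a1 ranged from 6.26 to 15.0 FPKM and Col4a2 from 6.0 to 14.4 FPKM, with both extremes in untreated GFP+ cells, and their ratio stayed between 0.866 and 1.12. Their annotated exons overlap at the start, where unstranded reads cannot be assigned. Lamb1 and Lamc1, the other laminin chains listed, ranged from 19.2 to 45.0 FPKM and from 27.3 to 41.4 FPKM. Col4a5 ranged from 22.0 to 36.2 FPKM and Col7a1, the anchoring fibril collagen, from 2.76 to 8.79 FPKM, again with untreated samples at both ends. Col15a1 was untested, at 0.0327 and 0.0391 FPKM in RFP+, 0.0577 and 0.114 FPKM in untreated GFP+, and 0.347 and 0.430 FPKM in CTX-treated cells, where it was highest.

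Of the matricellular proteins, which modulate contact between cells and matrix, Thbs2 rose in CTX-treated cells. Thbs2 was at 2.02 and 1.34 FPKM in RFP+, 3.37 and 3.12 FPKM in untreated GFP+, and 7.14 and 6.68 FPKM in CTX-treated cells, with no overlap between the groups. It rose by 0.90 against untreated GFP+ cells (SE 0.19, adjusted p = 0.0291) and by 1.57 against RFP+ cells (SE 0.19, adjusted p = 0.00359). The former had an adjusted p of 0.0966 after scaling and of 0.0538 to 0.270 without any sample other than untreated GFP+ replicate 2.

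Thbs1, the related thrombospondin, was at 152 and 358 FPKM in RFP+, 88.1 and 283 FPKM in untreated GFP+, and 157 and 151 FPKM in CTX-treated cells. Replicate 2 was the higher sample in both untreated groups, and the log2 changes of -0.56, -0.04 and -0.60 had standard errors of 0.59 and adjusted p of 0.600, 0.972 and 0.517. Vcan, the hyaluronan-binding proteoglycan versican, was at 14.3 and 25.6 FPKM, 11.4 and 33.3 FPKM, and 57.2 and 57.6 FPKM. Its CTX samples were above the other 4, but the change of 1.53 against RFP+ cells had an adjusted p of 0.0727 (0.0555 after scaling), and that of 1.50 against untreated GFP+ cells one of 0.0908. Tnc, tenascin, ranged from 6.22 FPKM in RFP+ to 12.7 FPKM in CTX-treated cells and was highest in the CTX samples (0.67 against RFP+ cells, adjusted p = 0.0743).

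Scaling changed which collagens were called but not the direction of a called change. Calls made only after scaling, such as those of Col5a1, Col6a1, Col6a2 and Col8a1, were not followed gene by gene with samples left out. With any sample left out, fewer genes then rose between the untreated populations and fewer fell in CTX-treated against untreated GFP+ cells. In the plot of both scalings, the points of CTX-treated minus untreated GFP+ cells move left, and those of untreated GFP+ minus RFP+ cells move right. Scaling raises the values of untreated GFP+ replicate 1 (log2 size factor -0.43). It lowers those of the other samples, most in the CTX samples (0.15 in each). Eln and Fbln1 rose, and Col1a1 and Emilin1 fell, in CTX-treated against untreated GFP+ cells under both. P4ha2 and Thbs2 rose there in the deposited values only.

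**Figure D3:**
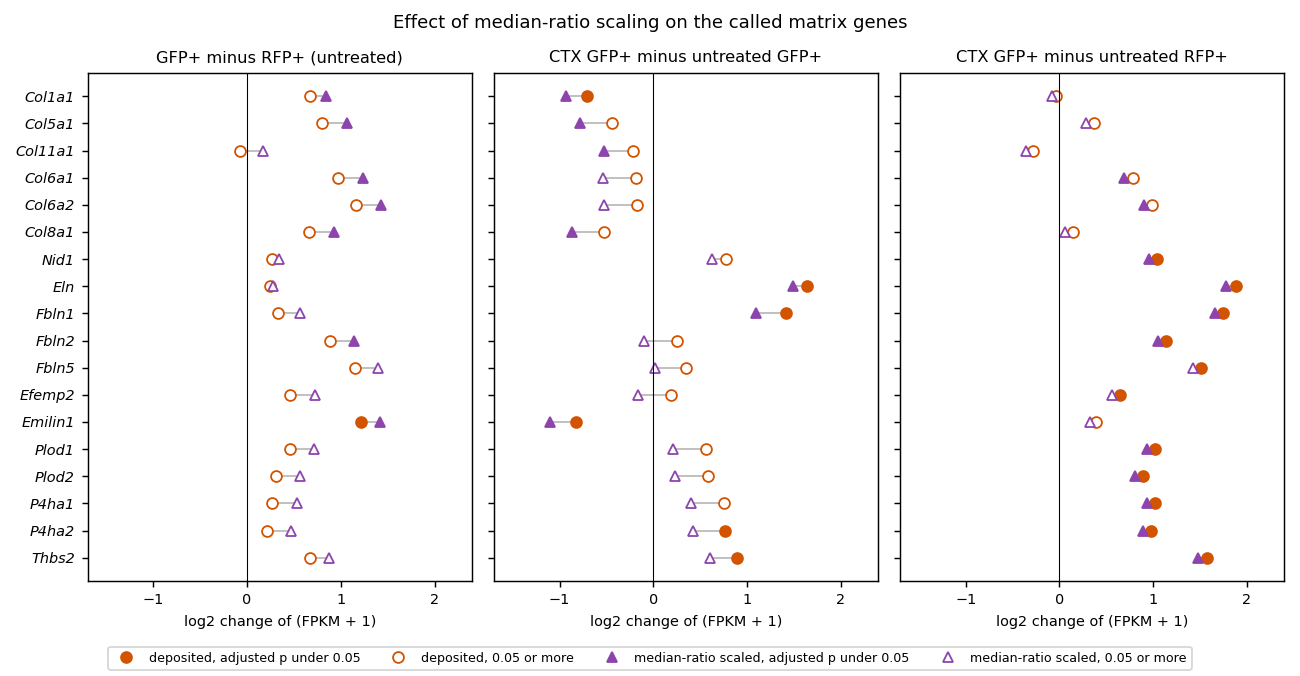
Log2 change of (FPKM + 1) for the 18 matrix genes past the threshold in any comparison, as deposited (circles) and after median-ratio scaling (triangles), filled where the adjusted p is under 0.05. In the middle panel every point moves to lower values with scaling, and 4 genes keep their call.

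The samples of each untreated group differed from each other in many features, matrix genes among them. Among the 37 tested genes replicate 2 was above replicate 1 in 27 in RFP+ cells and in 32 in untreated GFP+ cells, with median log2 differences of 0.25 and 0.69. Over all tested features 43.8% and 84.8% were higher in replicate 2 and the medians were -0.05 and 0.34, so the count in untreated GFP+ cells is near that of all features. In CTX-treated cells 12 were higher in replicate 2 and the median was -0.02. Col18a1 had the largest difference in both untreated groups, 2.26 and 2.45, and Fbln5 was lower in replicate 2 in both, with differences of -0.75 and -0.60. In the CTX samples no tested matrix gene differed by more than 0.14 in size. All 6 samples share 1 estimate of the spread per gene in the fit. The close CTX pair tends to lower that estimate in all comparisons, also in the one between the untreated populations.

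**Figure D4:**
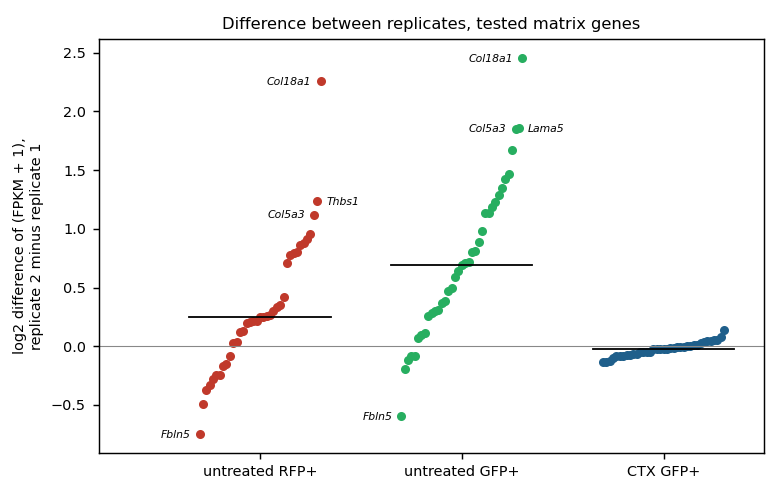
Log2 difference of (FPKM + 1) between replicate 2 and replicate 1 in each group for the 37 tested matrix genes, each point 1 gene, ordered by value, with the median as a horizontal bar. Genes spread from -0.75 to 2.26 in RFP+ and from -0.60 to 2.45 in untreated GFP+ cells, and those in the CTX samples lie within 0.14 of 0.

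A second list of 60 matrix genes outside the 43 was read in the same fit, of which 44 were tested. Between the untreated populations 1 rose, Fkbp10, a prolyl isomerase that acts with lysyl hydroxylase (2.50 to 6.60 FPKM on average, log2 change 1.13, adjusted p = 0.0392), and 0 fell (18 in all at an unadjusted p under 0.05). Of all tested features 0.115% rose and 1.78% fell in that comparison. In CTX-treated against untreated GFP+ cells 6 rose (Col9a3, Col17a1, Col23a1, Loxl4, Tgfbi and Tnxb) and 2 fell, beside 12.3% and 0.474% of all tested features. The count that rose is thus near the share of all features. Tnxb averaged 0.0802 FPKM in RFP+ and 0.274 FPKM in untreated GFP+ cells and entered the test only through the CTX samples, at 2.32 FPKM. The fallers were Postn, periostin, from 135 ± 34.8 to 43.3 ± 0.290 FPKM (SD, n = 2 each, log2 change -1.60, adjusted p = 0.0185), and Fbn2, a fibrillin, from 8.26 ± 0.204 to 3.53 ± 0.0524 FPKM (log2 change -1.03, adjusted p = 0.0291). Loxl4, a lysyl oxidase, rose by 1.48 (adjusted p = 0.0130). In CTX-treated against RFP+ cells 14 rose and 0 fell, beside 11.0% and 5.99% of all tested features. Among the risers were Col23a1 (2.01, adjusted p = 0.00245), Ecm1 (1.86, adjusted p = 0.0218) and Fn1, fibronectin (1.23, adjusted p = 0.0440), at 1378 ± 9.55 against 588 ± 61.5 FPKM. The median log2 changes of this list were 0.16, 0.43 and 0.59, beside -0.24, 0.25 and 0.01 for all features. After scaling the counts that rose and fell were 6 and 1, 4 and 3, and 15 and 3. The shares of all features were 1.02% and 1.96%, 11.0% and 8.04%, and 15.0% and 16.2%.

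Cell type markers moved with the groups too. Of 8 epithelial markers 6 fell in untreated GFP+ against RFP+ cells and 5 fell in CTX-treated GFP+ against RFP+ cells. In CTX-treated against untreated GFP+ cells 2 rose. After scaling 6 and 8 fell and 1 rose. Of all tested features 0.115% rose and 1.78% fell between the untreated populations. The shares were 11.0% and 5.99% in CTX-treated GFP+ against RFP+ cells, and 12.3% and 0.474% in CTX-treated against untreated GFP+ cells. With scaling they were 1.02% and 1.96%, 15.0% and 16.2%, and 11.0% and 8.04%, in the same order. Their summed level was 879 to 1134 FPKM in RFP+, 214 to 394 FPKM in untreated GFP+ and 443 to 462 FPKM in CTX-treated cells. The sum of 8 fibroblast markers was 24.3 to 27.3, 59.3 to 89.4 and 107 to 110.2 FPKM, of which Pdgfra, Pdgfrb and Dcn alone reached 1 FPKM, while Thy1, Lum and Dpt stayed at or under 0.104 FPKM. Dcn, decorin, rose in untreated GFP+ against RFP+ cells (log2 change 1.97, adjusted p = 0.0362). Dcn and Pdgfra rose in CTX-treated against RFP+ cells, and Pdgfrb fell in CTX-treated against untreated GFP+ cells. After scaling Pdgfra and Pdgfrb also rose in untreated GFP+ against RFP+ cells (adjusted p = 0.0154 and 0.0260). The sum of 6 pericyte and smooth muscle markers was 0.650 to 2.17 FPKM in untreated and 10.4 to 10.8 FPKM in CTX-treated cells, and 3 of 6 reached 1 FPKM. These were Rgs5, Notch3 and Des, which rose in both CTX comparisons. Rgs5 and Des reached 1 FPKM only in the CTX samples, and Notch3 in these and in RFP+ replicate 2 (1.31 FPKM). All 3 thus entered the test only through the CTX samples. Leukocyte markers summed to 209.6 and 210.1 FPKM in RFP+, 117 to 128 FPKM in untreated GFP+ and 163 to 169 FPKM in CTX-treated cells. Cd14 made up nearly all of this sum in untreated and most of it in CTX-treated cells. It fell in CTX-treated against RFP+ cells (206 to 133 FPKM on average, log2 change -0.62, adjusted p = 0.0420). Of 6 leukocyte markers 3 reached 1 FPKM, and the others, Cd68 and Lyz2, rose in both CTX comparisons, Lyz2 having entered the test only through the CTX samples. The defining markers Ptprc and Cd3e were at or near 0 in all samples. No endothelial (5) or adipocyte (4) marker reached 1 FPKM. The part of these markers, and of the low scale of untreated GFP+ replicate 1, in the matrix results was not tested.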

How the data were processed

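RNA was sequenced from 6 sorted cell samples in 3 groups of 2. The deposited values are FPKM, made by the authors. The submitters' processing notes name genome build mm9 and, without roles or settings, TopHat, Cufflinks, HTSeq, FastQC and CASAVA 1.8.2. Depth is known only in relative terms, and values carry no counting interval. Features reaching 1 FPKM in 2 or more samples (13080 of 30743) were fitted on log2(FPKM + 1) with limma 3.58.1 in R 4.3.3, with an intensity trend, all 6 samples in 1 model with 3 residual degrees of freedom, two-sided tests and Benjamini-Hochberg adjustment at 0.05 over all features. Fold changes on this scale understate changes of low genes. The fit was also run on simulated data with the same spread per gene in all groups. That run cannot show how the closer CTX pair affects the calls. Alternatives were other pseudocounts, filters, scalings, variance models, sample subsets and a replicate block. The 43 genes, the other lists and the comparisons were chosen with earlier results of these data known. Values in every sample are given for genes past the threshold as deposited or after median-ratio scaling and for the most abundant of each role, with a few further listed genes. Promoter sequences came from RefSeq (GRCm38.p6), other annotation from GENCODE. Plots used matplotlib 3.10.9 (Python 3.11.15).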

Additional observations from a re-analysis of the deposited data

How the results depend on the processing

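As deposited, 1 matrix gene rose and 0 fell in untreated GFP+ minus RFP+ cells, 4 rose and 2 fell in CTX-treated minus untreated GFP+ cells, and 11 rose and 0 fell in CTX-treated GFP+ minus RFP+ cells. Below, the first, second and last comparison mean these, in that order. Over all features the main fit called 15 higher and 233 lower in the first, 1607 and 62 in the second, and 1437 and 784 in the last. With a pseudocount of 0.1, 0 fell in the second (43 of all features). With no filter on low values 0 rose in the first and 1 fell in the second (1 and 56 of all). With a minimum of 5 FPKM, 0 rose in the first, and 2 rose and 0 fell in the second. Of all features 8, 863 and 37 did so. With median-ratio scaling 7 rose in the first, and 2 rose and 5 fell in the second. Of all features 133, 1437 and 1052 did so. With quantile normalization 4 rose in the first (Emilin1 not among them), 6 fell in the second and 1 fell in the last. Of all features 128, 1477 and 2350 did so. With only the 4 samples compared 2 rose in the first, 2 rose and 0 fell in the second, and 17 rose in the last. Of all features 43, 727, 26 and 2830 did so. With the CTX pair averaged, which left Eln untested, 1 rose and 0 fell in the second and 3 rose in the last. Scaling combined with that average, chosen after seeing the data, left 0 calls in all 3 comparisons (at an unadjusted p under 0.05, 19 higher in the first, 1 higher and 5 lower in the second, and 9 higher in the last). Over all features that fit called 1 higher and 3 lower in the first, 2 and 0 in the second, and 0 and 0 in the last. A pseudocount of 5, no trend and robust moderation moved no count by over 1.5 times.

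Leaving out each sample in turn gave 0 to 8 that rose and 0 to 2 that fell in the first, 1 to 12 that rose and 0 to 3 that fell in the second, and 1 to 17 that rose in the last. With scaling, added after seeing the data, 0 to 4 rose in the first, 0 to 4 rose and 0 to 4 fell in the second, and 0 to 15 rose in the last. Where a group was left with 1 sample, that sample was assumed to vary like the others. Of the matrix gene calls made in the deposited values, none changed direction under these alternatives. Calls made only after scaling were not followed through them, and the second list and the markers only through the scalings. The cause of lost and gained calls was not tested. The samples share only a replicate number. Over all tested features, deviations of same-numbered samples correlated at 0.30 between RFP+ and untreated GFP+. The values were -0.04 between RFP+ and CTX and -0.11 between untreated GFP+ and CTX. In both untreated groups the tested matrix genes differed between replicates in the same direction, except Col1a1, Col5a1, Plod1, P4ha2 and Serpinh1. The main fit had no replicate term. A fit with the replicate block gave 9 that rose and 1 that fell in the first, 8 that rose in the second and 17 that rose in the last. Of all features 195, 764, 2718 and 2224 did so. With scaling it gave 8 that rose in the first and 4 that fell in the second (132 and 1406 of all features). Depth limits the genes under 1 FPKM, which were not tested.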

Other observations

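Summed over the genes of a role, FPKM was highest for the hydroxylases and chaperone in 5 of 6 samples. The 5 hydroxylase and chaperone genes summed to 476 and 431 FPKM in RFP+, 503 and 605 FPKM in untreated GFP+, and 711 and 723 FPKM in CTX-treated GFP+ cells, highest in the CTX samples. The 7 elastic fibre genes summed to 156 and 139.8 FPKM, 220.3 and 249 FPKM, and 288 and 278 FPKM, with no overlap between the groups. The 7 fibrillar collagens summed to 42.2 and 49.2 FPKM, 62.3 and 99.9 FPKM, and 58.8 and 57.3 FPKM, highest in untreated GFP+ cells. The 12 basement membrane and network genes summed to 213 and 362 FPKM, 158 and 358 FPKM, and 303 and 297 FPKM, so that the untreated groups spanned the CTX samples. These sums follow the most abundant genes of each role and were not tested.

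The ratio of Plod2 to Plod1 was 0.680 and 0.967 in RFP+, 0.644 and 0.830 in untreated GFP+, and 0.724 and 0.761 in CTX-treated cells, and that of P4ha2 to P4ha1 lay between 0.164 and 0.223, without separation of the groups in either. Col5a2 stayed at or under 0.00468 of Col5a1 on the per-length scale in all samples.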
